A study of Homo sapiens with 6 samples.

Results

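The miR-99/100 and miR-125 families were followed on both strands of their hairpins in A549 cells with and without the MIR21 gene. The members were listed by family name, with no threshold on a measured value, although earlier results of these data were known when the families were picked: hsa-miR-99a-5p, hsa-miR-99a-3p, hsa-miR-99b-5p, hsa-miR-99b-3p, hsa-miR-100-5p, hsa-miR-100-3p, hsa-miR-125a-5p, hsa-miR-125a-3p, hsa-miR-125b-5p and hsa-miR-125b-2-3p, written below without the prefix for human. They comprised 10 of the 2588 miRNA names in the deposited table. miR-125b-1-3p, the 3p strand of the other miR-125b hairpin, was not on this list. It is given below as a cluster neighbor and is left out of all counts and medians of members. A549 is an established line of human lung adenocarcinoma cells. Small RNA had been sequenced from unedited A549 cells (Ctrl, 3 libraries) and from A549 cells with a CRISPR/Cas9 deletion at the MIR21 locus (MIR21-KO, 3 libraries), all collected 48 h after plating in the same medium with serum. The knockout cells were grown from single sorted cells. How many such clones stand behind the 3 MIR21-KO libraries is not given. The methods state for the experiments in general that biological triplicates were used, and p-values measure the spread between these libraries.

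MicroRNAs are cut from a hairpin that yields a 5p and a 3p strand. One strand usually remains bound to an Argonaute protein and guides it to mRNAs, mainly through bases 2 to 8 of the miRNA, the seed, while the other strand is mostly degraded. miR-100 belongs to the oldest miRNAs of animals, and miR-99/100 members are known to repress MTOR and IGF1R, which promote growth. miR-125 is the vertebrate counterpart of worm lin-4 and, like let-7, can repress LIN28A, an RNA-binding protein that blocks the maturation of let-7 hairpins. Genes of miR-99/100, let-7 and miR-125 lie together in that order in conserved clusters that can be transcribed as 1 RNA.

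The mature sequences are shown because the seeds set the families apart and because single bases distinguish members of a family. All are taken from RefSeq (GRCh38.p14), which held all 10 members, and are written 5′ to 3′ with the seed in capitals. The 5p strands of miR-99/100 share the seed ACCCGUA:
miR-100-5p: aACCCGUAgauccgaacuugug
miR-99a-5p: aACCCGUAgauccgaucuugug
miR-99b-5p: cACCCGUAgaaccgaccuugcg
The 5p strands of miR-125 share the seed CCCUGAG:
miR-125a-5p: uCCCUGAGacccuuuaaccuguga
miR-125b-5p: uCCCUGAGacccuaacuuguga
The 3p strands carry 4 further seeds, and only miR-99a-3p and miR-99b-3p have one in common:
miR-99a-3p: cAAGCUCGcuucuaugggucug
miR-99b-3p: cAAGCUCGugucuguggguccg
miR-100-3p: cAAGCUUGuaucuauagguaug
miR-125a-3p: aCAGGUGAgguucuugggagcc
miR-125b-2-3p: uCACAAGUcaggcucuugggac

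Counted from the 5′ end, miR-100-5p and miR-99a-5p differ by 1 substitution, A16U, outside the seed. miR-100-5p and miR-99b-5p differ by 4, A1C, U11A, A16C and U21C. miR-125a-5p and miR-125b-5p share their first 13 bases. Among the 3p strands, miR-99a-3p and miR-100-3p differ by 5 substitutions, of which C7U lies in the seed. Of 2370 mature miRNAs searched, no other carried ACCCGUA, and CCCUGAG was also found in miR-4319, which had no read in any library. How reads that match several of these near-identical miRNAs were assigned is not given, so the values of miR-100-5p and miR-99a-5p are uncertain to that extent.

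The members lie in 3 host genes. Which of their annotated transcripts A549 cells make was not measured here. On chromosome 11 (GRCh38, minus strand), MIR100 (122152229 to 122152308), MIRLET7A2 (122146522 to 122146593) and MIR125B1 (122099757 to 122099844) lie in introns of the long non-coding RNA MIR100HG. On chromosome 21 (plus strand), MIR99A (16539089 to 16539169), MIRLET7C (16539828 to 16539911) and MIR125B2 (16590237 to 16590325) lie in introns of MIR99AHG, also a long non-coding RNA. On chromosome 19 (plus strand), MIR99B (51692612 to 51692681), MIRLET7E (51692786 to 51692864) and MIR125A (51693254 to 51693339) lie in an intron of the protein-coding gene SPACA6. Only 572 bases separate MIR99B from MIR125A, against 51067 between MIR99A and MIR125B2 and 52384 between MIR100 and MIR125B1. miR-125b-5p is encoded with the same sequence by both MIR125B1 and MIR125B2 and had 2 rows in the table, which were summed. One of the rows held 47.0% to 51.8% of its reads over the libraries. Since reads of the same sequence cannot be told apart by locus, this split does not show what each locus yields.

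Libraries held 6180032 to 9768152 miRNA reads in Ctrl and 5577287 to 8671618 in MIR21-KO. Values are given as deposited, in reads per 1000000 after the TMM scaling of the authors. One read was worth 0.141 to 0.270 in Ctrl and 0.0720 to 0.130 in MIR21-KO. The deleted miRNA was checked first. miR-21-5p measured 957134 to 1202265 in Ctrl and 81.3 to 184 in MIR21-KO, a log2 fold change of -13.02 (SE 0.39, limma, adjusted p = 1.05e-06), and miR-21-3p changed by -9.64 (SE 0.68, adjusted p = 3.05e-04). The libraries did not divide by condition alone. The first principal component of 590 other miRNAs, with the members, their cluster neighbors and miR-21 left out, held 71.9% of the variance and formed 2 sets. The former set held MIR21-KO replicate 3 with Ctrl replicates 1 and 2, and the latter held Ctrl replicate 3 with the remaining MIR21-KO libraries. The labels name no such sets, so they are used below only to describe the values and as a term in an alternative fit. The methods state that small RNA libraries were made with a NEXTflex kit or by Novogene, and sequenced in Dresden or by Novogene. Which of these libraries took which route is not given, and whether the sets follow the routes was not tested. All 5 epithelial miR-200 family markers had reads in these epithelial cells, with summed values of 1374 to 2171 in Ctrl and 879 to 1269 in MIR21-KO. Most of the sum was miR-200b-3p, with means of 1496 in Ctrl and 715 in MIR21-KO. The mean of miR-200c-3p was higher in MIR21-KO (73.0 against 42.8), and those of the other markers were lower. miR-141-3p was near the limit of detection, with 1 to 19 reads per library. Of the endothelial markers, the strands of miR-126, miR-126-3p made up nearly the whole sum, which moved with the same sets of libraries, at 3658, 3361 and 991 in Ctrl replicates 1 to 3 and 837, 674 and 2446 in MIR21-KO replicates 1 to 3. Within each condition miR-126-5p ran the other way, at 9.88, 7.03 and 26.7 in Ctrl replicates 1 to 3 and 7.92, 9.52 and 4.42 in MIR21-KO replicates 1 to 3. The neuronal markers miR-9-5p and miR-124-3p summed to 388 to 746 in Ctrl and to 155 to 177 in MIR21-KO, and the mesenchymal markers miR-143-3p and miR-145-5p to 246 to 653 and to 426 to 1230.1. The neuronal sum was nearly all miR-9-5p, as miR-124-3p had at most 3 reads in a library. miR-143-3p made up most of the mesenchymal sum, at 237 in Ctrl replicate 3 and 1226 in MIR21-KO replicate 3. There miR-145-5p ran the other way, at 9.31 and 3.64. The erythroid, hepatocyte, striated muscle, lymphoid and myeloid lists stayed at sums of at most 141. The hepatocyte and erythroid sums were also high in Ctrl replicates 1 and 2 and MIR21-KO replicate 3. For the hepatocyte list they were 96.7, 141 and 7.90 in Ctrl replicates 1 to 3 and 16.2, 8.58 and 51.9 in MIR21-KO replicates 1 to 3. The lymphoid and striated muscle sums did not divide in this way, and the myeloid sum was at most 0.270. All libraries are of A549 cultures, so these lists are not read as showing other cell types. The part of these marker miRNAs in the results below was not tested. In RNA from whole cultures, fewer cells that express a miRNA and less of it per cell cannot be told apart.

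miR-100-5p was the most abundant member and held rank 3 of all miRNAs by its mean value. It measured 79150, 45251 and 16728 in Ctrl replicates 1 to 3 and 18564, 19845 and 65317 in MIR21-KO replicates 1 to 3. The high values were thus those of Ctrl replicates 1 and 2 and MIR21-KO replicate 3, and the groups overlapped. Means were 47043 ± 31249 in Ctrl and 34575 ± 26631 in MIR21-KO (SD, n = 3 each), a log2 fold change of -0.44 (SE 0.69, 95% confidence interval -2.04 to 1.17, limma, adjusted p = 0.799).

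miR-99b-5p, the partner of miR-125a in the SPACA6 cluster, held rank 13. It measured 12025, 9000.3 and 4285 in the Ctrl libraries and 6660.4, 6308 and 14494 in the MIR21-KO libraries. Again Ctrl replicates 1 and 2 and MIR21-KO replicate 3 were high, with MIR21-KO replicate 3 above all others. The log2 fold change was 0.13 (SE 0.52, 95% confidence interval -1.09 to 1.35, limma, adjusted p = 0.929).

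miR-99a-5p, which differs from miR-100-5p by a single base, held rank 40 and was high in the same 3 libraries. Its values were 3107, 2231 and 1079.6 in Ctrl, compared with 1577, 1324 and 3738 in MIR21-KO. The highest value was found in MIR21-KO and the lowest in Ctrl, and the log2 fold change was 0.020 (SE 0.58, 95% confidence interval -1.33 to 1.37, limma, adjusted p = 0.980).

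miR-99b-3p was the only 3p strand of the members in the upper range, at rank 56. It measured 2134, 1721 and 446 in Ctrl against 808, 723 and 1816 in MIR21-KO. It followed the 5p strands, and its lowest value, in Ctrl replicate 3, lay a factor of 4.79 below its highest. The log2 fold change was -0.21 (SE 0.70, 95% confidence interval -1.83 to 1.41, limma, adjusted p = 0.913).

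The remaining 3p strands of miR-99/100 were close to the limit of detection. miR-100-3p had 5, 6 and 23 reads in Ctrl and 28, 32 and 5 in MIR21-KO, which gave values of 1.34, 1.62 and 3.25, and of 2.02, 2.31 and 0.650, respectively. Its high libraries were the low libraries of miR-100-5p. Its log2 fold change was -0.22 (SE 0.42, limma, adjusted p = 0.832), on a log2(value + 1) scale that understates changes at such levels. miR-99a-3p had 1, 1 and 19 reads in Ctrl and 15, 10 and 0 in MIR21-KO and was the only member that did not pass the filter on low values, which asked for 1 or more in 3 or more libraries. A count of 0 in MIR21-KO replicate 3 allows up to 3 reads there.

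miR-125 5p strands were high in the other 3 libraries. miR-125a-5p, at rank 63, measured 378, 293 and 1328 in the Ctrl libraries and 1720.2, 1711 and 479 in the MIR21-KO libraries. Ctrl replicate 3 and MIR21-KO replicates 1 and 2 were high here, and the MIR21-KO library with the lowest value fell below Ctrl replicate 3. Means were 666 ± 574 in Ctrl and 1303 ± 714 in MIR21-KO (SD, n = 3 each), a log2 fold change of 1.09 (SE 0.76, 95% confidence interval -0.68 to 2.85, limma, adjusted p = 0.654). This was the largest value among the members, and its interval included no change. It ran from 0.66 without Ctrl replicate 2 to 1.75 without Ctrl replicate 3.

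miR-125b-5p, at rank 83, measured 323, 275 and 786 in Ctrl, compared with 1019.9, 1049 and 325 in MIR21-KO. It was high and low in the same libraries as miR-125a-5p, although its loci lie on other chromosomes. The log2 fold change was 0.77 (SE 0.65, 95% confidence interval -0.74 to 2.28, limma, adjusted p = 0.717).

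The 3p strands of miR-125 were scarcer and varied less. miR-125a-3p measured 16.3, 30.3 and 34.9 in Ctrl against 46.0, 39.4 and 25.2 in MIR21-KO, a log2 fold change of 0.45 (SE 0.49, limma, adjusted p = 0.735). miR-125b-2-3p, which stems only from MIR125B2 in MIR99AHG, measured 29.9, 22.7 and 26.5 in the Ctrl libraries and 34.0, 26.6 and 35.0 in the MIR21-KO libraries. Its highest value was 1.54 times its lowest, the narrowest range among the members with reads in all libraries, and it did not follow the split of the libraries. The log2 fold change was 0.26 (SE 0.41, limma, adjusted p = 0.795).

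**Figure D1:**
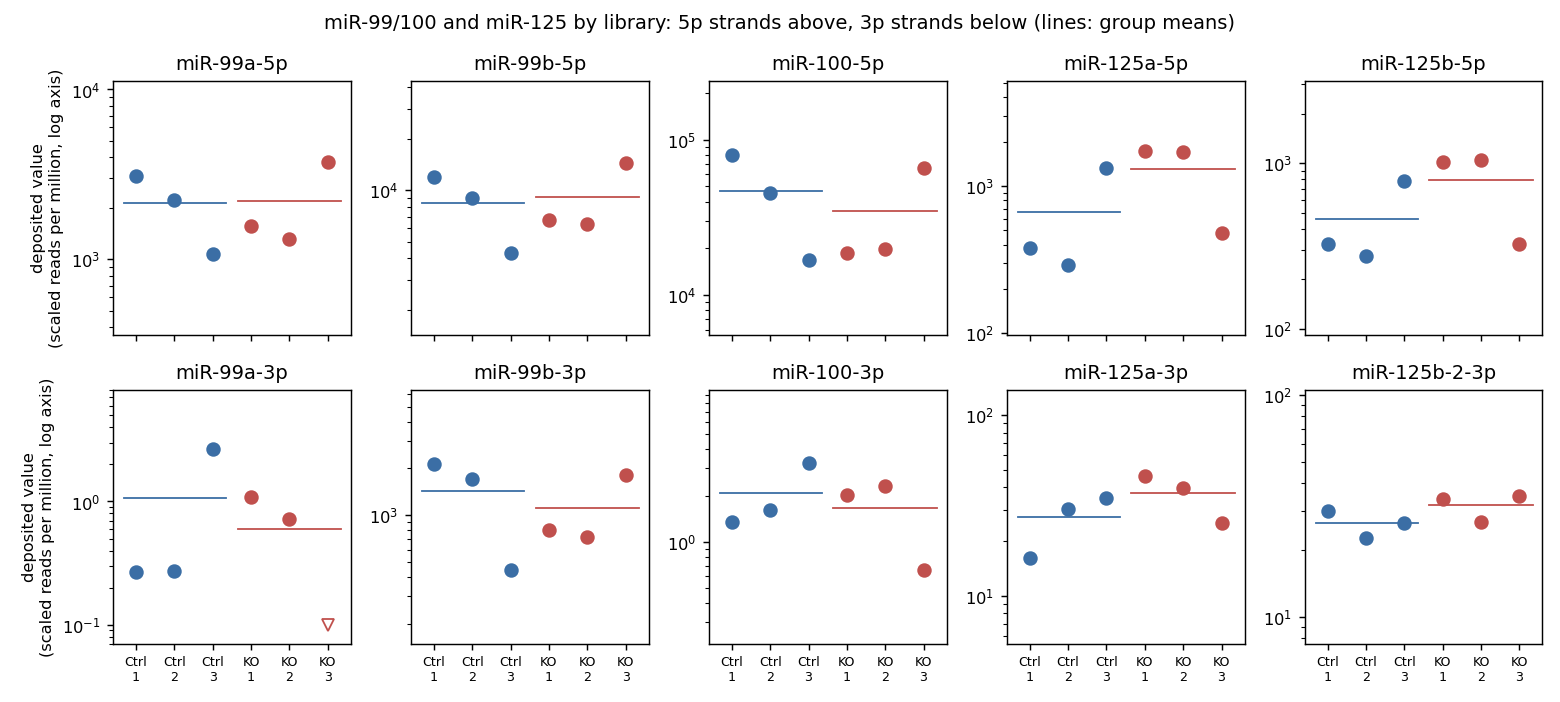
Deposited values (scaled reads per 1000000, log axis with its own range in each panel) of the 10 members in the 3 Ctrl (blue) and 3 MIR21-KO (red) libraries, with 5p strands above, 3p strands below and lines at group means; the open triangle marks 0 reads of miR-99a-3p in MIR21-KO replicate 3. miR-100-5p is high in Ctrl 1, Ctrl 2 and MIR21-KO 3 (45251 to 79150), whereas miR-125a-5p is high in Ctrl 3, MIR21-KO 1 and MIR21-KO 2 (1328 to 1720.2).

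In the fit over all miRNAs, none of the 9 members tested was called higher (background 0% of 607 miRNAs tested) or lower in MIR21-KO (background 0.824%, 5 miRNAs) at an adjusted p under 0.05. By limma, edgeR and DESeq2 alike, 0 members were called in either direction and 0 had an unadjusted p under 0.05, against 6.75% of all miRNAs higher and 4.45% lower by limma. Nor did the groups fail to overlap for any member, whereas all MIR21-KO libraries exceeded all Ctrl libraries for 9.56% of the miRNAs tested and fell below them for 6.59%. The log2 fold change lay above 0 for 6 of the 9 members and for 61.8% of all miRNAs. Its median was 0.13 over these members and 0.24 over all miRNAs. Scaling each library to the total of its miRNA reads, most of which are miR-21-5p in Ctrl, moved the median of all miRNAs to 1.34 and the split of calls from 0 higher and 5 lower to 196 higher and 7 lower. With that scaling the median of the members was 1.52, and miR-125a-3p, miR-125b-2-3p and miR-99b-5p were called higher. With each library scaled to its reads without miR-21, the median of all miRNAs was 0.019 and that of the members -0.12, and no member was called.

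The sign of the log2 fold change turned under at least 1 other scaling for 6 members. For miR-99a-5p and miR-99b-5p, the log2 fold change lay below 0 with each library scaled to its total without miR-21 (-0.23 and -0.12), with median-of-ratios factors (-0.14 and -0.029) and with median centring (-0.28 and -0.16). When scaled to all miRNA reads it lay above 0 for miR-100-5p (0.95), miR-99b-3p (1.18) and miR-100-3p (0.64), and with median centring it lay below 0 for miR-125b-2-3p (-0.034). miR-125a-5p, miR-125a-3p and miR-125b-5p lay above 0 under every scaling tried.

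When the 2 sets of libraries were added as a term, the standard errors of the members fell to between 0.20 and 0.31. As the sets come from these very libraries, the p-values of this fit are not independent of the values. With the term, log2 fold changes were 0.54 for miR-99b-5p (SE 0.20, limma, adjusted p = 0.0809), 0.46 for miR-99a-5p (SE 0.23, adjusted p = 0.174) and 0.16 for miR-100-5p (SE 0.22, adjusted p = 0.660). For the 5p strands of miR-125 they were 0.45 for miR-125a-5p (SE 0.23, adjusted p = 0.204) and 0.26 for miR-125b-5p (SE 0.23, adjusted p = 0.491). miR-100-3p had the only negative value among the members, -0.51 (SE 0.28, adjusted p = 0.233). None of the members was called, against 11.7% of all miRNAs called higher and 6.43% called lower. The unadjusted p was under 0.05 for miR-99b-5p alone (limma).

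For miR-100-5p, miR-125a-5p and miR-99b-5p, which followed the split of the libraries, the sets differed by more than the conditions within them. For miR-100-5p, the mean of Ctrl replicates 1 and 2 was 3.72 times Ctrl replicate 3, and MIR21-KO replicate 3 was 3.40 times the mean of the other MIR21-KO libraries, whereas MIR21-KO exceeded Ctrl by a factor of 1.05 in the former set and 1.15 in the latter. For miR-125a-5p the first pair of ratios ran the other way, 0.253 and 0.279, and the ratios of MIR21-KO to Ctrl within the sets were 1.43 and 1.29. miR-99b-5p had ratios of 2.45 and 2.24 between sets and of 1.38 and 1.51 within them. These are single libraries or means of 2 and carry no test.

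**Figure D2:**
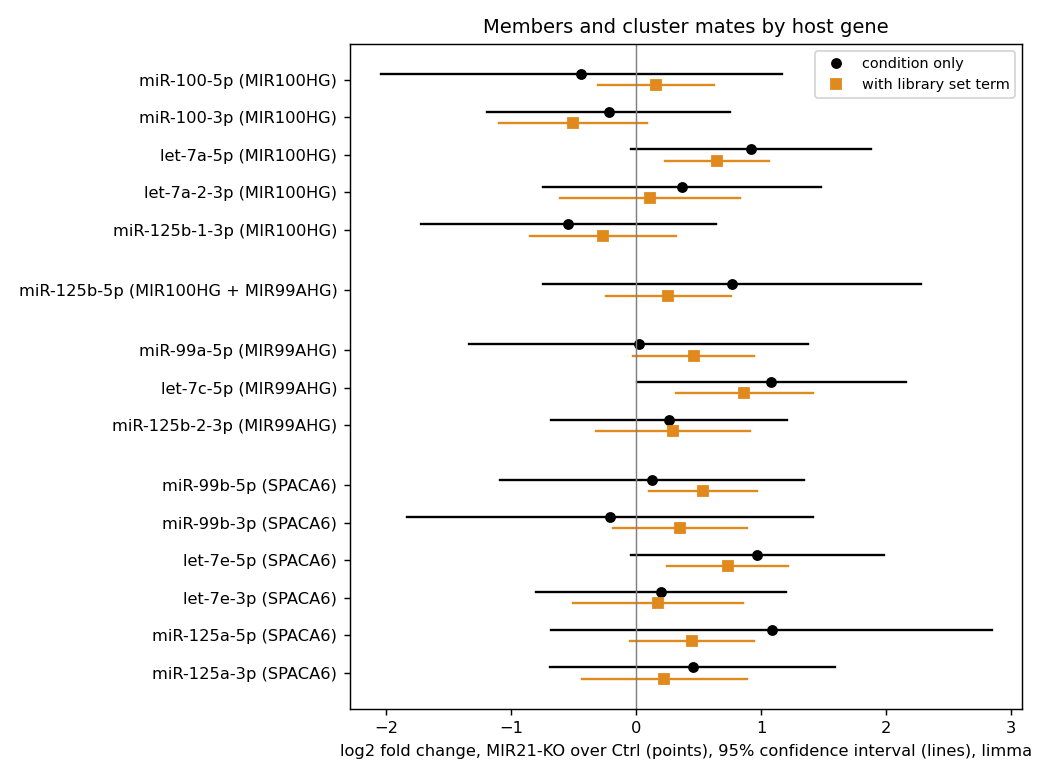
Log2 fold changes of MIR21-KO over Ctrl (points) with 95% confidence intervals (lines) from limma, for the members and their cluster neighbors by host gene, with condition as the only term (black circles) and with the set of each library as a further term (orange squares). The intervals of all members include 0 with condition only, and with the term that of miR-99b-5p (0.54) lies above 0 before adjustment for the number of miRNAs.

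The seed families were then compared as shares of the miRNA reads without miR-21, a measure that needs no scaling factor but depends on the reads taken as the whole. miR-99/100 5p strands made up 14.9%, 10.7% and 5.28% of these reads in Ctrl and 4.29%, 5.26% and 11.5% in MIR21-KO. Means were 10.3% ± 4.83 and 7.03% ± 3.93 (SD, n = 3 each), a difference of -3.28 percentage points within the spread of the libraries (two-sided exact permutation test, p = 0.4). It was -0.985 points without Ctrl replicate 1 and -5.80 without Ctrl replicate 3, and as a share of all miRNA reads, miR-21 included, it turned to 3.65. miR-125 5p strands made up 0.111%, 0.108% and 0.505% in Ctrl, compared with 0.439%, 0.528% and 0.111% in MIR21-KO, with means of 0.241% ± 0.228 and 0.359% ± 0.220 (exact permutation test, p = 0.5). Both shares thus had 3 high and 3 low libraries, and those high for one family were low for the other. With 3 libraries against 3 the exact permutation test cannot go below p = 0.1. For all 13 shares and ratios compared in this way, the Benjamini-Hochberg adjusted p of the exact test was at least 0.709.

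Within the miR-99/100 seed family, miR-100-5p was the main member everywhere. It held 84.0%, 80.1% and 75.7% of the family in Ctrl and 69.3%, 72.2% and 78.2% in MIR21-KO. The share of miR-99b-5p ran from 12.8% to 24.9% and that of miR-99a-5p from 3.30% to 5.89% over the libraries. Means of miR-100-5p were 79.9% ± 4.12 and 73.2% ± 4.54 (exact permutation test, p = 0.2), and within both sets of libraries MIR21-KO was lower, by 3.86 and 4.97 percentage points (untested).

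Within the miR-125 seed family, both members held similar shares. miR-125b-5p contributed 46.1%, 48.5% and 37.2% in Ctrl against 37.2%, 38.0% and 40.4% in MIR21-KO (means 43.9% ± 5.94 and 38.5% ± 1.65, exact permutation test, p = 0.4). The least precise of these shares, that of Ctrl replicate 2, rested on 2102 reads and had a 95% Wilson interval of 46.3% to 50.6%. miR-125a-5p exceeded miR-125b-5p in all 6 libraries.

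**Figure D3:**
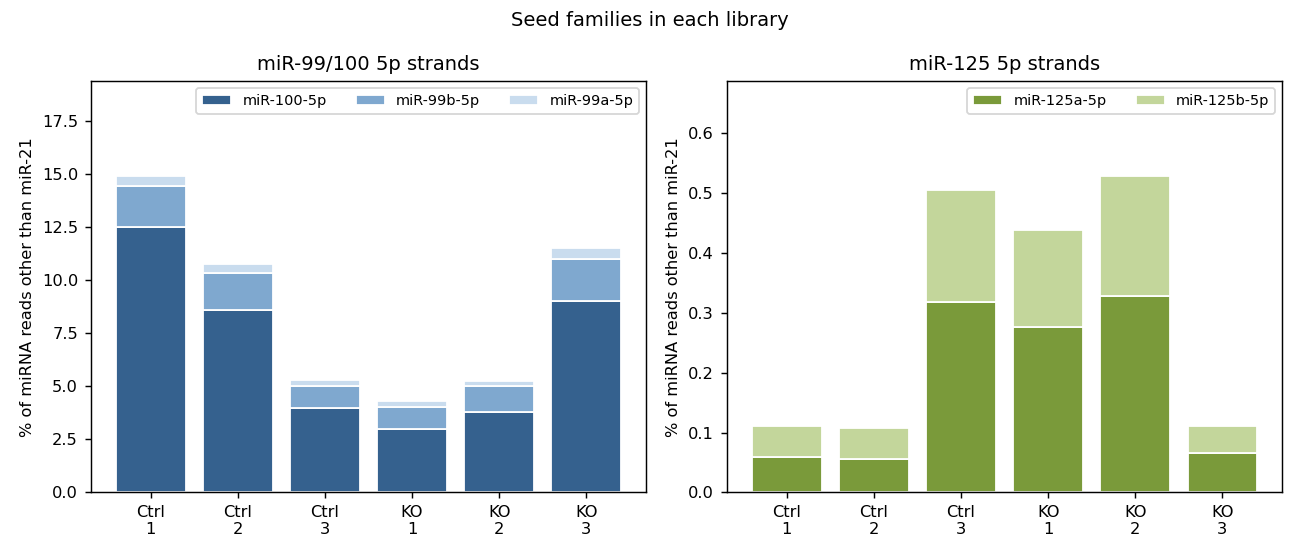
Share of each 5p seed family in the miRNA reads other than miR-21 (%, linear axes that start at 0 and differ in range), stacked by member, in the 3 Ctrl and 3 MIR21-KO libraries. The miR-99/100 family is at 14.9% in Ctrl 1 and at 5.28% in Ctrl 3, where the miR-125 family is near its highest share (0.505%).

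Strand ratios per hairpin separated the members further. Ratios per library are given in reads, which no scaling affects, while the tested differences are of log2((5p value + 1)/(3p value + 1)), in which the scaling still enters for scarce strands. miR-100 showed 59273, 27902 and 5154 reads of its 5p strand per 3p read in Ctrl and 9204, 8599 and 100475 in MIR21-KO. The ratio was high where miR-100-5p, its numerator, was high, which follows in part from how it is formed. Its highest value rests on 5 reads of the 3p strand. The 3p strand made up 0.000995% of both strands there (95% Wilson interval 0.000425% to 0.00233%) and 0.0194% in Ctrl replicate 3 (0.0129% to 0.0291%), and these intervals, which cover counting error only, do not overlap. The difference in the log2 ratio between MIR21-KO and Ctrl was -0.22 (SE 1.07, limma, adjusted p = 0.955), and it was -0.068 with a pseudocount of 0.1 and -0.39 with one of 10.

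miR-99a had its high and low ratios in the same libraries as miR-100, which again follows in part from where its 5p strand was high. Its ratio was 11633, 8255 and 403 in the Ctrl libraries and 1460.0, 1835.5 and at least 9584 in the MIR21-KO libraries, where the last is a bound set by 3 reads for the 3p strand that had none. Its 3p strand did not reach the level needed for the test. miR-99b kept a far lower ratio of 5.64, 5.23 and 9.61 in Ctrl, compared with 8.24, 8.72 and 7.98 in MIR21-KO, with a difference of 0.34 on the log2 scale (SE 0.45, limma, adjusted p = 0.901).

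miR-125 ratios were high where those of miR-100 were low. They were high where the miR-125 5p strands, their numerators, were high, which follows in part from how they are formed. miR-125a had 23.2, 9.67 and 38.1 reads of its 5p strand per 3p read in Ctrl and 37.4, 43.5 and 18.99 in MIR21-KO, a log2 difference of 0.63 (SE 0.66, limma, adjusted p = 0.901) that ran from 0.099 without Ctrl replicate 2 to 1.09 without Ctrl replicate 3. miR-125b-5p over miR-125b-2-3p gave 10.8, 12.1 and 29.6 in Ctrl against 30.0, 39.4 and 9.28 in MIR21-KO, a log2 difference of 0.51 (SE 0.73, limma, adjusted p = 0.901). Since miR-125b-5p is encoded at a pair of loci, its ratio to the 3p strand of the other locus, miR-125b-1-3p, was computed as well.

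This neighbor is no member, has a sequence of its own and is shown for comparison with miR-125b-2-3p:
miR-125b-1-3p: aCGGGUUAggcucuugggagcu
It measured 141, 157 and 72.4 in the Ctrl libraries and 82.3, 57.5 and 109 in the MIR21-KO libraries, a log2 fold change of -0.54 (SE 0.51, limma, adjusted p = 0.719). It was high in the libraries in which miR-100-5p was high and miR-125b-5p low, although MIR125B1 encodes it together with miR-125b-5p. The ratio of miR-125b-5p to it ran over 2.29, 1.75 and 10.9 in Ctrl, compared with 12.4, 18.2 and 2.99 in MIR21-KO, a log2 difference of 1.31 (SE 0.97, limma, adjusted p = 0.901) that ran from 0.79 without MIR21-KO replicate 2 to 2.12 without Ctrl replicate 3. Of 181 hairpins whose strands could be compared, 0% were called in either direction with limma, and 1 had a higher and 4 a lower ratio at an unadjusted p under 0.05. None of these 5 belonged to a member. With the library set as a term, 0% were called higher and 0.552% lower, the latter being miR-21 itself, and again no member.

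**Figure D4:**
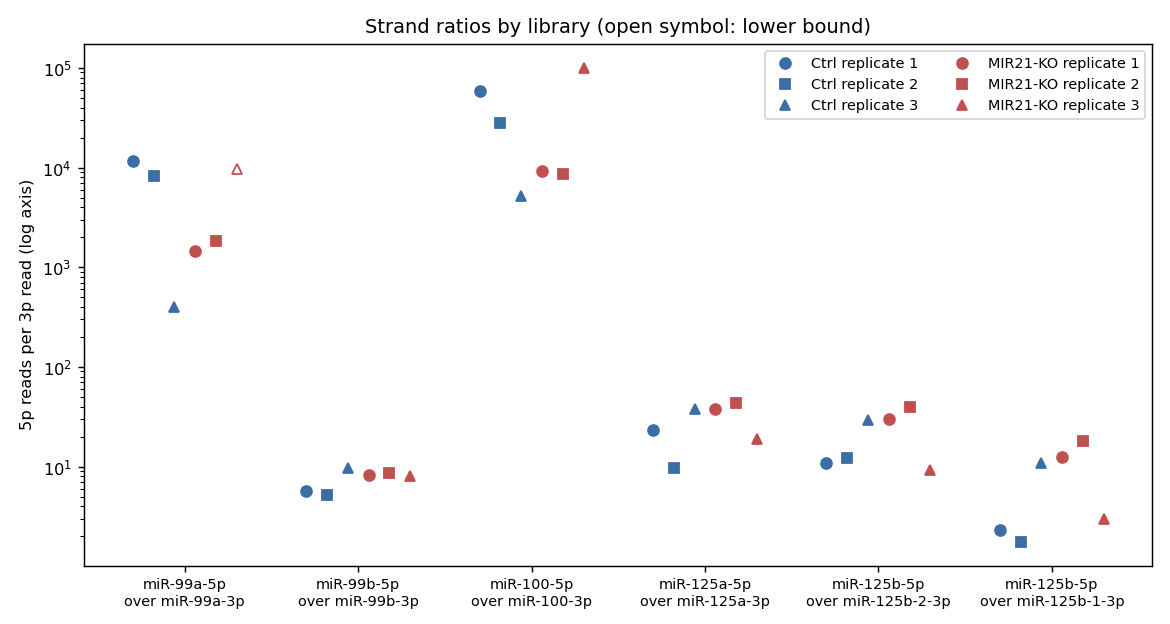
Reads of the 5p strand per read of the 3p strand (log axis) in each Ctrl (blue) and MIR21-KO (red) library, with symbols for replicates 1 to 3; the open triangle is a lower bound for miR-99a in MIR21-KO replicate 3. The ratio of miR-100 runs from 5154 to 100475 and that of miR-99b from 5.23 to 9.61.

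The hairpins of SPACA6 lie within the shortest cluster and could be compared directly. miR-99b-5p measured 12025 in Ctrl replicate 1 and 4285 in Ctrl replicate 3, where miR-125a-5p measured 378 and 1328. In MIR21-KO replicates 2 and 3, miR-99b-5p measured 6308 and 14494 and miR-125a-5p 1711 and 479. Strands from hairpins 572 bases apart thus differed in opposite directions between libraries of 1 condition, without replication of either pair. The members of this cluster made up 14.98%, 18.8% and 24.7% of the reads of all members in Ctrl and 30.3%, 28.3% and 19.5% in MIR21-KO (means 19.5% ± 4.87 and 26.0% ± 5.76, exact permutation test, p = 0.2).

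let-7 strands of the same clusters were compared next. let-7a-5p, let-7c-5p and let-7e-5p share the seed GAGGUAG, and let-7c-5p and let-7e-5p differ from let-7a-5p by 1 substitution each, A19G and U9G:
let-7a-5p: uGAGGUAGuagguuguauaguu
let-7c-5p: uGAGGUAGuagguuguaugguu
let-7e-5p: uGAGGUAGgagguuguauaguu
let-7e-5p, from the hairpin between MIR99B and MIR125A, measured 1199, 1760.2 and 2323 in Ctrl against 4174, 3756 and 2364 in MIR21-KO. let-7c-5p, the neighbor of miR-99a, measured 136, 190 and 266 in the Ctrl libraries and 513, 412 and 311 in the MIR21-KO libraries. All MIR21-KO libraries exceeded all Ctrl libraries for both in the deposited values, which was the case for 9.56% of all miRNAs tested. As shares of the miRNA reads without miR-21, the groups overlapped for both. By that measure let-7c-5p was at 0.0429% in MIR21-KO replicate 3 and 0.0636% in Ctrl replicate 3, and let-7e-5p at 0.326% and 0.555%. let-7a-5p was more abundant, at a mean of 9257 over all libraries against 2596 for let-7e-5p and 305 for let-7c-5p. How reads were assigned among these near-identical strands is not given, so the values of let-7c-5p and let-7e-5p are uncertain to that extent.

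let-7a-5p, which is also made at loci outside MIR100HG, measured 5066, 4908 and 9490 in Ctrl, compared with 14752, 12908 and 8419 in MIR21-KO. Of the 6 cluster neighbors tested, 0 passed the test, with log2 fold changes of 0.97 for let-7e-5p (SE 0.43, limma, adjusted p = 0.447), 1.08 for let-7c-5p (SE 0.46, adjusted p = 0.434) and 0.92 for let-7a-5p (SE 0.41, adjusted p = 0.447). The let-7 3p strands were scarce, with let-7e-3p at 13.2 to 25.6, let-7a-2-3p at 1.08 to 5.19 and let-7c-3p at 0.534 to 1.15, the last below the filter. With the library set as a term, let-7e-5p (0.74, limma, adjusted p = 0.0373), let-7c-5p (0.87, adjusted p = 0.0324) and let-7a-5p (0.65, adjusted p = 0.0341) were called higher, as were 11.7% of all miRNAs, whereas with the same term in edgeR let-7e-5p was not (adjusted p = 0.0554).

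Ratios of let-7 to its neighbors were taken on the log2(value + 1) scale. For let-7a-5p to miR-100-5p the ratio was -3.97, -3.20 and -0.82 in the Ctrl libraries and -0.33, -0.62 and -2.96 in the MIR21-KO libraries, a difference of 1.36 (exact permutation test, p = 0.2). The differences for let-7c-5p to miR-99a-5p and for let-7e-5p to miR-99b-5p were 1.06 (exact permutation test, p = 0.3) and 0.84 (exact permutation test, p = 0.5). The groups overlapped for each. The ratios were low in the libraries in which miR-99/100, their denominator, was high, which follows in part from how they are formed. Within the sets of libraries the differences were 0.63 and 0.34 for let-7a-5p, 0.45 and 0.36 for let-7c-5p and 0.22 and 0.17 for let-7e-5p, all above 0 and untested.

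Ratios of let-7 to miR-125 varied less. let-7e-5p to miR-125a-5p gave 1.66, 2.58 and 0.81 in Ctrl against 1.28, 1.13 and 2.301 in MIR21-KO, a difference of -0.11 (exact permutation test, p = 0.9). For let-7a-5p and let-7c-5p to miR-125b-5p the differences were 0.15 (exact permutation test, p = 0.8) and 0.31 (exact permutation test, p = 0.6). let-7a-2-3p, which unlike let-7a-5p stems from MIR100HG alone, differed by 0.81 relative to miR-100-5p (exact permutation test, p = 0.6) and by -0.40 relative to miR-125b-5p (exact permutation test, p = 0.5), on 4 to 72 reads per library.

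**Figure D5:**
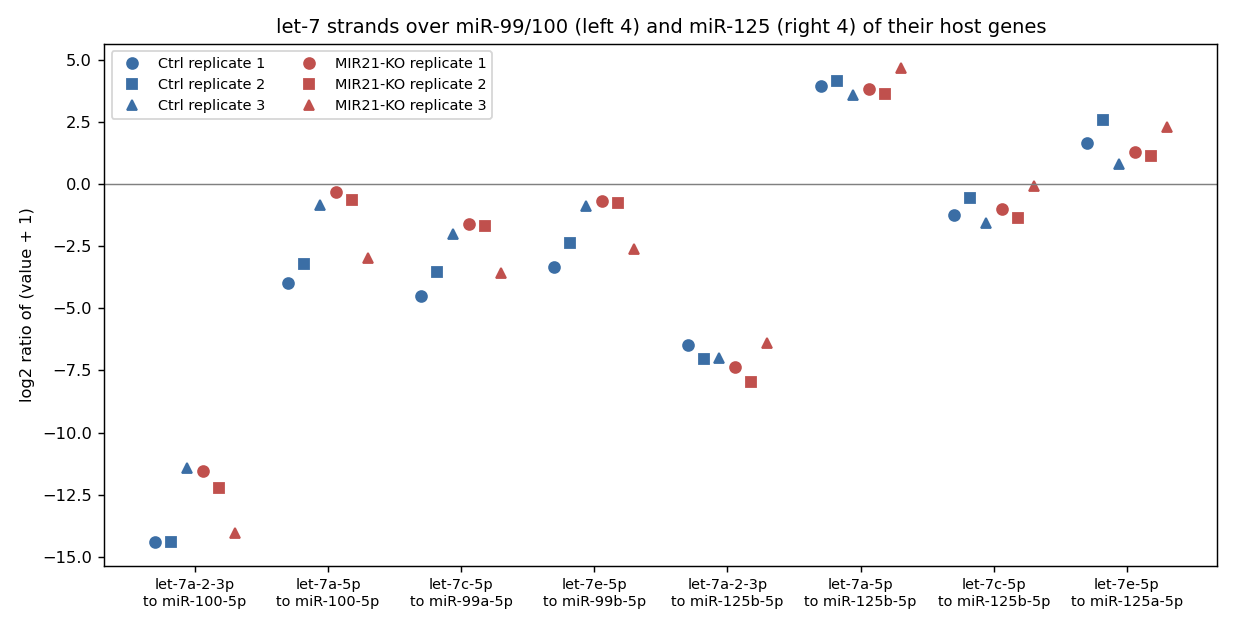
Log2 ratio of let-7 strands to the miR-99/100 (left) or miR-125 (right) member of the same host gene, on (value + 1), in each Ctrl (blue) and MIR21-KO (red) library, with symbols for replicates 1 to 3. let-7a-5p to miR-100-5p spans -3.97 to -0.33, and let-7a-5p to miR-125b-5p only 3.59 to 4.69.

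Finally, the miRNAs with the library pattern most like that of 3 members were listed, by the root mean square difference of log2 values centred on their mean over the 6 libraries, among 324 miRNAs that are no members and have a mean value of at least 10. For miR-100-5p these were miR-380-5p (0.207), miR-671-3p (0.267) and miR-128-3p (0.273). For miR-99b-5p they were miR-183-5p (0.0535), miR-361-3p (0.149) and miR-3167 (0.161), and for miR-125a-5p they were miR-191-5p (0.119), miR-339-5p (0.205) and miR-23a-3p (0.206). By the same measure miR-99b-5p was 0.104 from miR-99a-5p and 1.55 from miR-125a-5p, its partner in SPACA6, whereas miR-125a-5p was 0.264 from miR-125b-5p.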

How the data were processed

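The authors deposited 1 signal per miRNA row and library, TMM-scaled counts per 1000000, for 2813 rows. The submitters' notes name cutadapt 1.14, Bowtie2 2.3.2, SAMtools 1.5, featureCounts 1.5.3, edgeR 3.18.1 and hg38, without roles, and the miRNA annotation is not given in the sources used here. The deposited fold changes and p-values were not used. Rows of 1 name were summed (167 names). All values above 0 were whole multiples of 1 read, so counts could be recovered. TMM removes a change shared by most miRNAs. Replicates differed by a chi-square of at least 130.4 per degree of freedom.

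limma 3.58.1 (trend, R 4.3.3) was fitted on log2(value + 1) over 607 miRNAs with values of at least 1 in at least 3 libraries, with Benjamini-Hochberg adjustment, and on the log2 strand ratio over 181 hairpins. Exact permutation tests (two-sided, scipy 1.17.1) were used for shares and let-7 ratios. Ratios per library are of reads. edgeR 4.0.16 and DESeq2 1.42.0 on recovered reads, pseudocounts of 0.1 and 10, other filters and scalings, a replicate block, a library set term and omission of each library were alternatives. edgeR with the library set term and the comparisons within sets were added after seeing the data. The fits were tested on simulated counts that held no difference between library sets, unlike the data. The simulation therefore does not show how the fits behave with such sets. The miRNAs named are the members, their cluster neighbors, miRNAs that share a 5p seed, the 3 nearest in pattern to each of 3 members, and miR-21. Markers of cell types are named as well, from a separate list. Members, lists and alternatives were chosen with earlier results of these data known. Loci are from GENCODE 29. Wilson intervals cover counting error only, and limma intervals the spread between libraries.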

Additional observations from a re-analysis of the deposited data

How the results depend on the processing

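Of 589 recomputed values, 502 were scored as unchanged, 50 turned direction, 25 counts or medians moved, 12 passed the threshold newly and 0 fell below it. No value scored against the threshold had passed it in the main analysis, so none could fall below it. Shares and let-7 ratios could not pass it, as their exact test cannot go below p = 0.1. Unchanged means the same direction and side of the threshold for tested values. For untested comparisons within sets it means the same direction, and for counts and medians a similar size. What caused the changes was not tested. Calls among the members stayed at 0 in both directions under all alternatives except scaling to all miRNA reads, which called 3 higher, miR-99b-5p (1.52), miR-125a-3p (1.79) and miR-125b-2-3p (1.60). Over all miRNAs, 196 were called higher with that scaling, 4 with DESeq2, 71 with the library set term and 51 with this term in edgeR. The 5 called lower became 3 with a pseudocount of 10, 9 with median centring, 19 with DESeq2, 39 with the library set term, 33 with this term in edgeR, 2 at an adjusted p under 0.01 and 2 to 5 without single libraries. With the replicate number as a block, 2 were called lower, and no other call changed. Libraries of the same number correlated at -0.79, -0.60 and -0.88 in their deviations, so the numbers pair no libraries. Called strand ratios were 1 with a pseudocount of 10, 1 with the library set term and 0 to 1 without single libraries.

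Log2 fold changes turned as follows. miR-99a-5p became -0.23 when scaled without miR-21, -0.14 with median-of-ratios factors, -0.28 with median centring and -0.16 with DESeq2, and miR-99b-5p became -0.12, -0.029, -0.16 and -0.10. With scaling to all reads, miR-99b-3p became 1.18, miR-100-5p 0.95, miR-100-3p 0.64 and miR-125b-1-3p 0.83. With the library set term miR-99b-3p became 0.35 and miR-100-5p 0.16, and in edgeR 0.35 and 0.13. With median centring miR-125b-2-3p became -0.034 and let-7e-3p -0.092, and let-7e-3p became -0.041 when scaled without miR-21 and -0.057 with DESeq2. The strand ratio difference of miR-100 became 0.67 and that of miR-125b over miR-125b-2-3p -0.034 with the library set term. As a share of all reads the miR-99/100 family was 3.65 percentage points higher in MIR21-KO (exact permutation test, p = 0.2). Within Ctrl replicate 3 and MIR21-KO replicates 1 and 2, the miR-125 family share differed by -0.0214 points, miR-125b-5p in its family by 0.416 points, let-7a-2-3p to miR-100-5p by -0.46 and let-7e-5p to miR-125a-5p by 0.40. Within the other set, let-7a-2-3p to miR-125b-5p differed by 0.36 and let-7e-5p to miR-125a-5p by 0.18.

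Without single libraries, fold changes ran from -0.44 to 0.35 for miR-99a-5p, -0.30 to 0.45 for miR-99b-5p, -0.91 to 0.22 for miR-99b-3p, -1.05 to 0.069 for miR-100-5p, -0.41 to 0.093 for miR-100-3p, -0.027 to 0.75 for let-7a-2-3p and -0.047 to 0.35 for let-7e-3p. Those of miR-125a-5p (0.66 to 1.75), miR-125b-5p (0.48 to 1.33), miR-125a-3p (0.14 to 0.70), miR-125b-2-3p (0.16 to 0.38) and miR-125b-1-3p (-0.89 to -0.31) kept their sign. Strand ratio differences ran from -1.12 to 0.46 for miR-100, 0.18 to 0.61 for miR-99b, 0.099 to 1.09 for miR-125a and, for miR-125b, 0.79 to 2.12 over miR-125b-1-3p and 0.099 to 1.13 over miR-125b-2-3p. Family share differences ran from -5.80 to -0.985 points for miR-99/100 and 0.0335 to 0.250 for miR-125. Ratios of let-7a-5p, let-7c-5p and let-7e-5p to miR-99/100 ran from 0.71 to 2.28, 0.49 to 1.73 and 0.27 to 1.49. Ratios to miR-125 ran from -0.17 to 0.37 for let-7a-5p, -0.056 to 0.60 for let-7c-5p and -0.55 to 0.34 for let-7e-5p. Depth limits miR-99a-3p and miR-100-3p, with at most 32 reads in a library.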
